A study of Mus musculus with 7 samples.

Results

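Mitochondrial ribosomal proteins are the protein subunits of the ribosome inside mitochondria, and 76 of their genes were followed in nucleus pulposus, the soft centre of the discs between vertebrae. They were chosen by symbol, as every array feature whose platform symbol begins with Mrpl or Mrps and a number, with the feature of highest mean where a gene had more than 1. Each of the 76 genes had 1 feature. They make up 76 of 19505 named genes on the array, 48 with an Mrpl symbol (large subunit) and 28 with an Mrps symbol (small subunit). Of the 78 protein-coding genes with such symbols in the RefSeq table used here, Mrpl53 and Mrps6 were not analysed here.

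The mitochondrial ribosome translates the few mRNAs of the mitochondrial genome, all of which encode membrane subunits of the respiratory chain and of ATP synthase. Its proteins are encoded in the nucleus, made in the cytosol and imported, and they assemble on 2 mitochondrial ribosomal RNAs into a large subunit that forms peptide bonds and a small subunit that reads the mRNA. Many have relatives in bacterial ribosomes, while others are found in mitochondria only. Nucleus pulposus cells live without direct blood supply and rely largely on glycolysis, with lactate as its end product, which leaves the cell through the exporter MCT4.

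RNA came from 7 mice, 1 array per animal. The 4 wild-type (WT) animals were 13 months old, and the 3 animals lacking MCT4 in all tissues (MCT4KO, a global deletion of Slc16a3) were 14 months old, so age and genotype cannot be told apart. Nucleus pulposus of lumbar and caudal discs of 1 animal was pooled into 1 sample. Heterozygous parents, backcrossed for 10 generations to C57Bl/6N, gave the knockout and wild-type littermates. The strain is given as C57BL/6 for each sample, whereas the description of the design names C57Bl/6N for the knockouts alone. Values are log2 expression values as deposited, and a change is the MCT4KO mean minus the WT mean on that scale.

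Slc16a3 read 13.55, 13.35, 13.61 and 13.40 across WT 1 to 4, against 5.02, 4.98 and 4.47 across MCT4KO 1 to 3, below the array's negative controls (median 5.99), which matches the labels. Array medians over all genes ran from 6.46 to 6.51. Of 9 measured nucleus pulposus and notochord markers, only Foxa1 was at or below the control median in every array, and their summed level was 20.38 to 20.51 in WT and 20.41 to 20.57 in MCT4KO on the log2 scale. All 5 endothelial markers were at or below the control median in every array, as were 4 of 5 macrophage markers (Adgre1, C1qa, C1qb and C1qc). The remaining macrophage marker, Csf1r, read 10.79 to 11.28 in WT and 10.83 to 11.40 in MCT4KO. The 10 neutrophil and marrow markers summed to 12.45, 15.40, 10.29 and 10.80 across WT 1 to 4, against 11.53, 9.37 and 8.79 across MCT4KO 1 to 3. The sum in MCT4KO 1 was mostly Lcn2 (11.30), while S100a8, S100a9, Ngp and Retnlg were below every wild type in every knockout, with none called. S100a8, Ngp and Retnlg were below the control median in every knockout, and S100a9 in MCT4KO 2 and MCT4KO 3. No size of change is therefore given for them. The 6 cartilage end plate markers, of which Matn3, Matn1 and Epyc were at background in every array, summed to 10.97 to 13.36 in WT and to 14.65, 11.08 and 10.04 in MCT4KO 1 to 3.

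To ask whether loss of the lactate exporter altered the machinery of mitochondrial translation, the 76 genes were compared between genotypes. None of the 76 passed the test (limma adjusted p under 0.05 over all genes), where 115 of 19505 genes, or 0.59%, did, 0.472% lower and 0.118% higher in MCT4KO. At an unadjusted p under 0.05 there were 9 members, or 11.8% of them against 12.7% of all genes. Of these members 6 were lower, where 6.9% of all genes were, and 3 higher, where 5.76% were; under quantile normalization 2 were lower and 6 higher. Leaving out WT 1 to 4 in turn gave 4, 8, 5 and 8 such members, where 11.8%, 10.6%, 10.2% and 11.7% of all genes passed. Leaving out MCT4KO 1 to 3 in turn gave 5, 3 and 10, where 9.66%, 13.5% and 12.3% of all genes passed. Without WT 1 and WT 2 there was 1 member, where 9.74% of all genes passed. The groups did not overlap in 6 members, or 7.89% against 12% of all genes, with 3 lower (6.37% of all genes) and 3 higher (5.66%). Both shares lie near or below those of all genes. Among the 10787 genes at or above the control median, 1192 were lower and 546 higher at unadjusted p under 0.05. In 1571 of them the groups did not overlap. The 72 members in that set had 6 lower, 3 higher and 6 without overlap. In bulk tissue, a difference in the number of cells of a type and a difference in RNA per cell cannot be told apart.

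The changes were small and lay on both sides of 0. The median change was -0.070 over the large subunit, with 28 of 48 members below 0, and -0.054 over the small subunit, with 15 of 28 below 0 (47% of all genes were), but both medians turned positive under quantile normalization, at 0.022 and 0.037. Over all genes the median was 0.017, and over the 10787 genes at or above the control median, which include all but 4 of the members, it was -0.049, with 6226 below 0, and 0.016 under quantile normalization. The small-subunit median was also above 0 without WT 3 (0.040) and without MCT4KO 1 (0.067). Whether the subunits differed from each other was not tested.

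The data bound the size of change for most members. Mrpl22, Mrpl36, Mrpl54 and Mrps35 read at or below the control median in all 7 arrays, so the array gives no size of change for them. Of the other 72, the 95% interval of the change lay within a 2-fold change in either direction for 70, or 97.2% against 87% of the 11872 genes above the control median in at least 1 array. It lay within 0.5 on the log2 scale for 34, or 47.2% against 33.7%. With features at background included, these counts are 74 (91.2% of all genes) and 37 (38.7%). The exceptions to the 2-fold bound were Mrpl41, whose interval ran from -1.28 to -0.30, and Mrpl9, whose interval ran from -0.02 to 1.05. The median half-width of the interval was 0.36 over the large subunit and 0.33 over the small subunit.

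**Figure D1:**
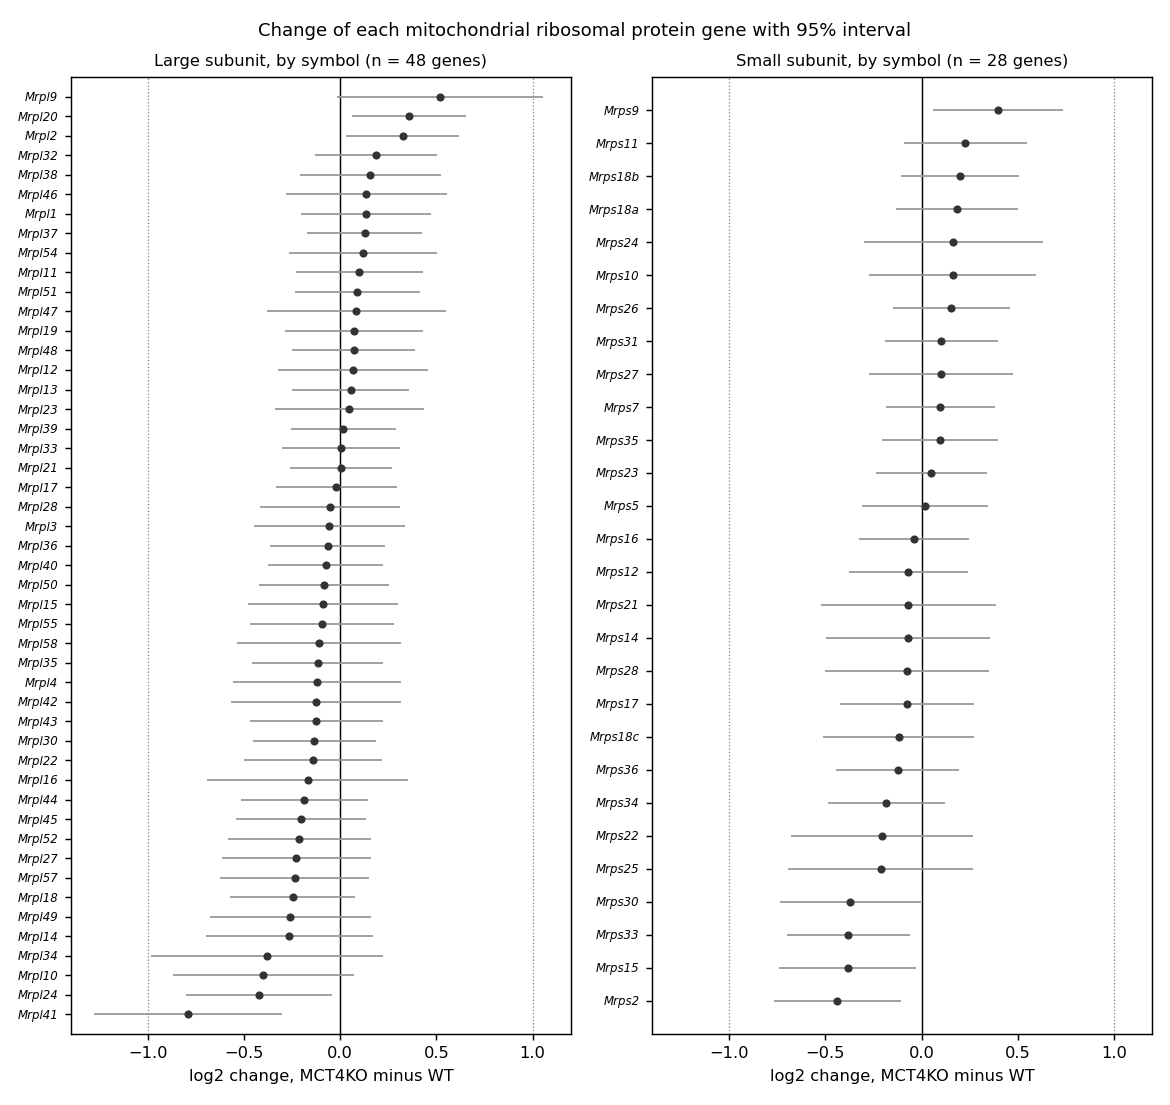
Change of each member (x axis: log2 change, MCT4KO minus WT, n = 3 and 4 animals) with its 95% interval from limma, large subunit left and small subunit right, sorted by change; dotted lines mark a 2-fold change. The points spread on both sides of 0, and only the intervals of Mrpl41 and Mrpl9 cross a dotted line.

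Among large-subunit genes, the smallest p belonged to Mrpl41, a protein of the large subunit with no bacterial relative. Mrpl41 read 8.77, 8.80, 8.32 and 8.003 across WT 1 to 4, against 7.94, 7.43 and 7.67 across MCT4KO 1 to 3. Every knockout lay below every wild type, with WT 4 and MCT4KO 1 close together. The mean was 8.47 ± 0.383 (SD, n = 4) in WT and 7.68 ± 0.253 (SD, n = 3) in MCT4KO, a change of -0.79 ± 0.218 (SE; limma adjusted p = 0.18, and 0.12 to 0.51 over the alternatives tried). WT 1 and WT 2, the highest for Mrpl41, also had the highest neutrophil and marrow markers, all 10 of which were below 0 in MCT4KO with none called. Without these animals the change of Mrpl41 was -0.48 (adjusted p = 0.51); whether the markers had a part in it was not tested.

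Mrpl20, a relative of a bacterial protein that binds ribosomal RNA, and Mrpl2, which lies near the site of peptide bond formation, read higher in every knockout than in every wild type. Mrpl20 read 9.63, 9.87, 9.76 and 9.79 across WT 1 to 4, against 10.03, 10.29 and 10.04 across MCT4KO 1 to 3, a change of 0.36 ± 0.133 (limma adjusted p = 0.31). Mrpl2 read 9.69, 9.44, 9.49 and 9.67 across WT 1 to 4, against 9.80, 9.97 and 9.92 across MCT4KO 1 to 3, a change of 0.32 ± 0.131 (limma adjusted p = 0.35). In both genes the groups were apart without overlap, and neither passed the test over all genes. Mrpl9 had the largest positive change, 0.52 ± 0.239 (limma adjusted p = 0.42), with WT 4 at 8.98 above all MCT4KO animals (8.72 to 8.95) and WT 1 to 3 at 7.86 to 8.28. Without WT 1 and WT 2 its change was 0.19.

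Mrpl24 and Mrpl23 lie around the exit of the tunnel through which the new chain leaves, and neither passed. Mrpl24 read 10.85, 10.59, 10.97 and 11.003 across WT 1 to 4, against 10.12, 10.63 and 10.54 across MCT4KO 1 to 3, a change of -0.42 ± 0.169 (limma adjusted p = 0.34; -0.27 without MCT4KO 1), with MCT4KO 2 above WT 2. Mrpl23 had a change of 0.05 (interval -0.34 to 0.43) and Mrpl44, which has a fold like that of RNase III, a change of -0.19 (interval -0.51 to 0.14), which was -0.047 without MCT4KO 1. At the stalk, which recruits translation factors, the changes were -0.40 for Mrpl10 (interval -0.87 to 0.07; -0.61 without MCT4KO 3 and -0.19 without WT 1 and WT 2), 0.10 for Mrpl11 (interval -0.23 to 0.43) and 0.07 for Mrpl12 (interval -0.32 to 0.45). Mrpl11, Mrpl12 and Mrpl23 changed sign when 1 animal was left out. Mrpl18 and Mrpl34, both with bacterial relatives, had changes of -0.25 and -0.38 with overlapping groups (adjusted p = 0.50 and 0.58). Without MCT4KO 1 they were -0.16 and -0.15; Mrpl34 was also -0.20 without WT 1 and -0.61 without MCT4KO 3.

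Among small-subunit genes, Mrps2, with a bacterial relative of the same name, had the smallest p. It read 9.40, 9.44, 9.32 and 9.07 across WT 1 to 4, against 9.05, 8.71 and 8.85 across MCT4KO 1 to 3. The groups were separated by the narrow gap between WT 4 and MCT4KO 1, with a change of -0.44 ± 0.147 (limma adjusted p = 0.27) that came to -0.33 without WT 1 and WT 2. Mrps33, a protein of mitochondria only, read 10.84, 10.62, 10.72 and 10.74 across WT 1 to 4, against 10.10, 10.52 and 10.43 across MCT4KO 1 to 3, again without overlap, a change of -0.38 ± 0.143 (limma adjusted p = 0.32). Mrps15 had a change of -0.38 ± 0.158 (limma adjusted p = 0.36), with MCT4KO 3 at 6.49 above WT 4 at 6.46.

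Mrps9, a protein of the small subunit's head that reaches towards the tRNA, had a change above 0. It read 8.90, 9.36, 9.33 and 9.32 across WT 1 to 4, against 9.61, 9.72 and 9.54 across MCT4KO 1 to 3, with WT 1 below the other wild types. The change was 0.40 ± 0.151 (limma adjusted p = 0.33). Mrps7 in the head and Mrps12 at the decoding site had changes of 0.10 (interval -0.19 to 0.38) and -0.07 (interval -0.38 to 0.24), the latter turning positive under quantile normalization. Mrps11 (0.23; 0.14 without MCT4KO 2) and Mrps34 (-0.18; -0.11 without MCT4KO 3) overlapped between groups, with adjusted p of 0.53 and 0.60.

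Some Mrps genes encode proteins that do not sit in the small subunit. Mrps30 is part of the large subunit, as is Mrps18a, the large-subunit member of a family of 3 paralogs that all descend from the same bacterial protein. Mrps30 read 8.28, 8.08, 8.38 and 8.20 across WT 1 to 4, against 7.72, 7.67 and 8.21 across MCT4KO 1 to 3, a change of -0.37 ± 0.164 (limma adjusted p = 0.39), with MCT4KO 3 among the wild types. The paralogs had changes of 0.18 for Mrps18a (interval -0.13 to 0.50), 0.20 for Mrps18b (interval -0.11 to 0.51) and -0.12 for Mrps18c (interval -0.51 to 0.27). Leaving out 1 animal gave 0.11 to 0.25, 0.093 to 0.26 and -0.24 to -0.031 for the 3 in turn. Mrps36, since reassigned to the oxoglutarate dehydrogenase complex of the citric acid cycle, had -0.12 (interval -0.44 to 0.20; -0.18 to -0.037 with 1 animal left out). With Mrps30 and Mrps18a counted in the large subunit and Mrps36 left out, the subunit medians were -0.07 and -0.04.

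**Figure D2:**
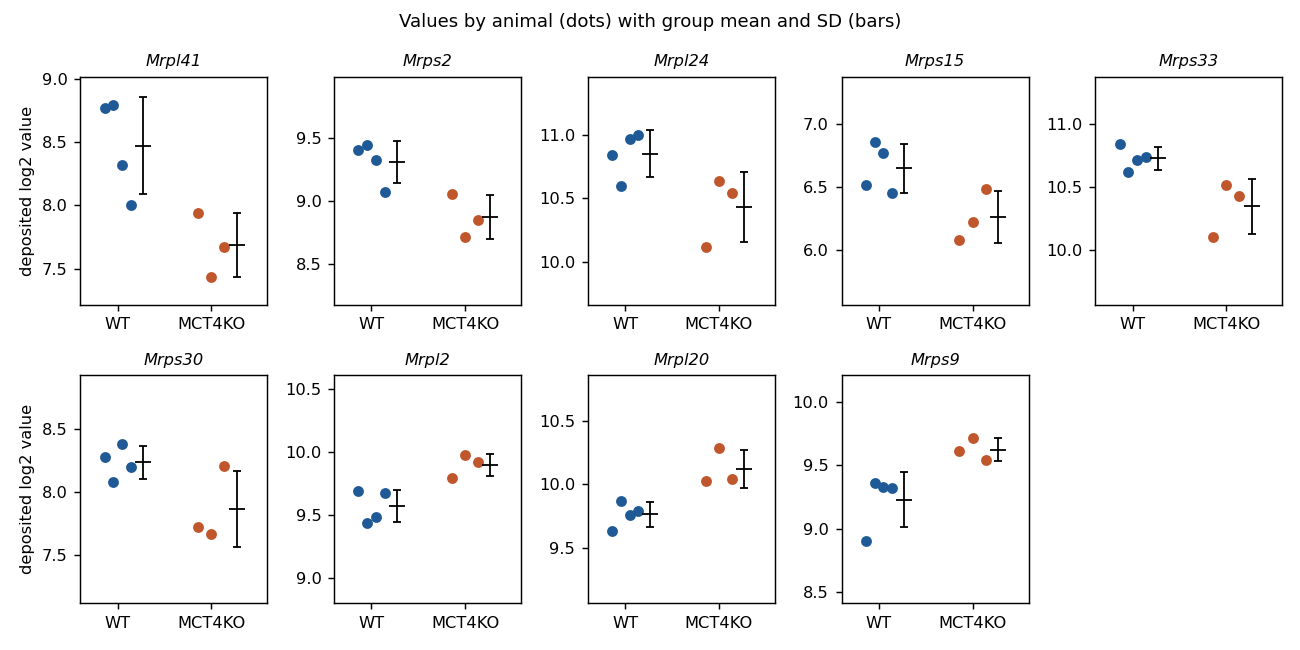
Deposited log2 values (y axis, the same span of values in each panel) of the 9 members with an unadjusted p under 0.05, by group (x axis); dots are animals, and bars give the mean and SD of 4 WT and 3 MCT4KO animals. The groups do not overlap in Mrpl41, Mrps2, Mrps33, Mrpl2, Mrpl20 and Mrps9, and overlap in the other 3.

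Grouped by ancestry, the 47 members with a bacterial relative had a median change of -0.05 in the deposited values, with 3 lower and 3 higher members at unadjusted p below 0.05 (6.38% each way, against 6.9% and 5.76% of all genes). The 28 found in mitochondria only had a median of -0.10, with 3 lower (Mrpl41, Mrps33 and Mrps30; 10.7%) and 0 higher. Limma called 0 in either set, and the difference between the sets was not tested. At unadjusted p below 0.05, 1192 of the 10787 genes at or above the control median were lower and 546 higher.

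Members also varied between animals of the same genotype. Deviations of a gene from its group means were set against the mean deviation of the other members of its subunit, as a description over 7 animals that share the arrays and their scaling. The correlation was above 0 for 44 of 48 large-subunit genes (median 0.52) and 21 of 28 small-subunit genes (median 0.37). Mrpl44 (r = 0.95), Mrpl34 (0.89) and Mrpl38 (0.88) followed the large subunit most closely, and Mrps14 (0.93), Mrps22 (0.76) and Mrps10 (0.71) the small subunit. Those that followed least were Mrpl9 (-0.50), Mrpl41 (-0.27) and Mrpl20 (-0.13) on the large side, and Mrps16 (-0.82) and Mrps2 (-0.59) on the small side, where the third by rank, Mrps35, is at background and its value is not read. Mrpl41, Mrpl20, Mrpl9 and Mrps2 thus belong both to the members of smallest p for genotype and to those that followed their subunit least. Other members of smallest p followed their subunit closely, among them Mrpl34 (0.89), Mrpl18 (0.80), Mrpl24 (0.72) and Mrps33 (0.66). Mrps16, which followed least of all, had a limma adjusted p of 0.92. Whether following and genotype change were related was not tested. The median correlation between pairs of members was 0.21 within the large and 0.05 within the small subunit, against 0.42 among 65 cytosolic ribosomal protein genes, 0.29 among 85 respiratory complex subunit genes and 0.026 among all genes at or above the control median.

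MCT4KO 1 had the lowest values of both subunits in the deposited data. Relative to each gene's WT mean, the mean over the large subunit was -0.19 in MCT4KO 1, -0.0090 in MCT4KO 2 and 0.03 in MCT4KO 3, and 39, 24 and 20 of the 48 genes lay below the WT mean. Over the small subunit it was -0.15, 0.01 and 0.05, and 17, 14 and 10 of 28 genes lay below. All genes at or above the control median were lower in MCT4KO 1 too, by a mean of -0.12, against -0.048 in MCT4KO 2 and -0.045 in MCT4KO 3. Under quantile normalization, which removes such differences between arrays, the means in MCT4KO 1 were -0.080 over the large subunit, with 28 of 48 genes below the WT mean, and -0.031 over the small subunit, with 14 of 28 below. Under that scaling WT 2 had a large-subunit mean of -0.073 and WT 1 a small-subunit mean of -0.050, so MCT4KO 1 was no longer the lowest animal for the small subunit and lay next to WT 2 for the large subunit.

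In the deposited values, 25 of the 76 members had their lowest value of all 7 arrays in MCT4KO 1 (32.9%, against 19.7% of all genes) and 18 in WT 2 (23.7%, against 14.4%). These shares were not counted among genes at or above the control median alone. Of those 10787 genes, 6612 lay below their WT mean in MCT4KO 1 and 5786 in WT 2. The large-subunit means of 8.91, 8.75, 8.88 and 8.78 across WT 1 to 4 overlapped those of 8.63, 8.82 and 8.86 across MCT4KO 1 to 3. MCT4KO 1 also had the highest summed cartilage end plate markers (14.65), most of it Chad, which read 14.29 there and had a change of -0.77 over the group. Col2a1 (10.08) and Col10a1 (12.11) were also highest in MCT4KO 1. Col2a1 read 9.22 in MCT4KO 2 and 8.85 in MCT4KO 3, so every knockout lay above every wild type (7.58 to 8.30). Its change was 1.32 (limma adjusted p = 0.088). None of the 6 was called, and the part of these markers in the low values of MCT4KO 1 was not tested.

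**Figure D3:**
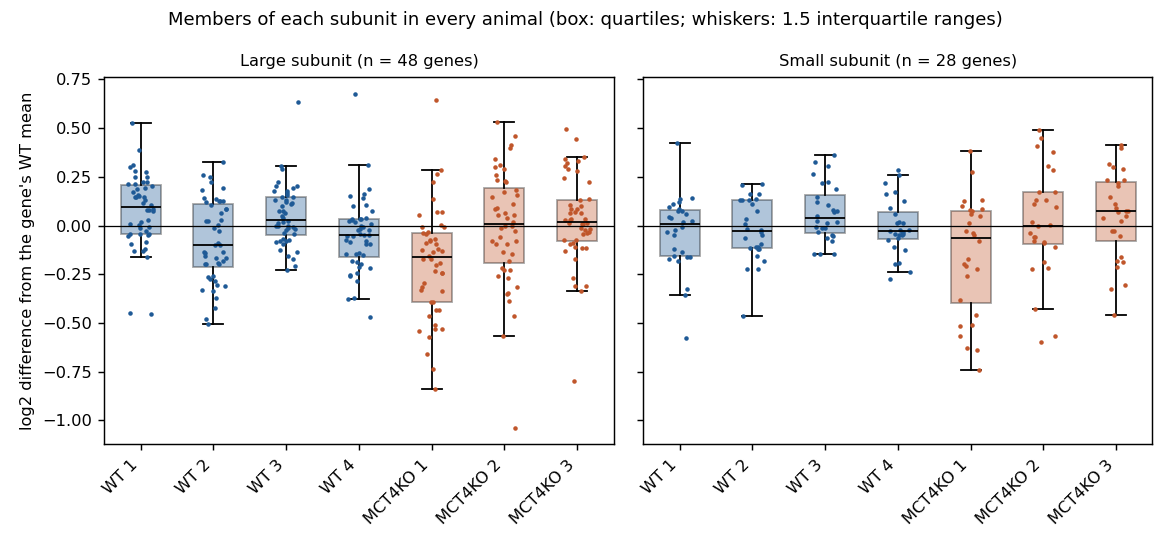
Log2 difference of each member from its own WT mean (y axis) in each of the 7 animals (x axis), large subunit left and small subunit right; dots are genes, boxes show quartiles and the median, and whiskers reach at most 1.5 interquartile ranges. In these deposited values the box of MCT4KO 1 lies lowest in both panels (means -0.19 and -0.15, and -0.080 and -0.031 under quantile normalization), and the small-subunit median of MCT4KO 3 (0.072) lies above those of all wild types (highest 0.037).

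Genes that act with the mitochondrial ribosome were read from 6 companion lists, and 0 of their 108 measured genes were called by limma (0.59% of all genes were); at unadjusted p below 0.05, 8 were lower (7.41%, against 6.9% of all genes) and 5 higher (4.63%, against 5.76%), close to the shares of all genes. Among ribosomal proteins named outside the Mrp series, together with the insertase Oxa1l, 4 of 5 were below 0. Of the 10787 genes at or above the control median, 6226 were below 0. Oxa1l at -0.045 and Chchd1 at -0.0077 lay close to 0. Ptcd3, a small-subunit protein at the mRNA entry, read 10.01, 9.80, 9.68 and 9.13 across WT 1 to 4, against 8.74, 8.83 and 9.28 across MCT4KO 1 to 3, a change of -0.71 ± 0.221 (limma adjusted p = 0.24) with MCT4KO 3 above WT 4. Dap3, the GTP-binding small-subunit protein, had -0.05 and Gadd45gip1, a large-subunit protein, 0.27 (adjusted p = 0.90 and 0.51).

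Among 27 assembly and rRNA modification genes, the median change was -0.06; at unadjusted p below 0.05, 3 were lower (11.1%, against 6.9% of all genes) and 0 higher (5.76% of all genes). These were Tfb1m, a methyltransferase of ribosomal RNA, Mettl17 and Mettl15. At the same threshold, 1192 of the 10787 genes at or above the control median were lower and 546 higher. Tfb1m read 8.43, 7.45, 7.83 and 7.76 across WT 1 to 4, against 6.34, 7.34 and 7.15 across MCT4KO 1 to 3, a change of -0.92 ± 0.279 (limma adjusted p = 0.22), without overlap and with MCT4KO 1 far below the rest. Mettl17 had -0.37 ± 0.133 and Mettl15 -0.66 ± 0.274 (limma adjusted p = 0.30 and 0.36).

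The 15 translation factors and mRNA-binding proteins had a median of -0.14, with 11 below 0. Lrpprc, which stabilises mitochondrial mRNAs, had -0.37, the elongation factor Gfm1 -0.32 and Gfm2 -0.48 (limma adjusted p = 0.39 to 0.43). The 19 mitochondrial aminoacyl-tRNA synthetases had a median of -0.02, with Yars2 at -0.34, Pars2 at 0.38 and Rars2 at -0.53 (adjusted p = 0.37 to 0.42). In mitochondrial transcription and RNA processing, 8 of 16 genes lay on each side of 0; Mterf1a had 0.56 (adjusted p = 0.34). Fastkd1 was at or below the control median in 5 of 7 arrays, all 3 MCT4KO arrays among them, and Polrmt, the mitochondrial RNA polymerase, in all 7, so no size of change is given for them. The 26 import genes had a median of -0.02. Timm22, the carrier translocase, read 8.18, 7.97, 8.08 and 8.32 across WT 1 to 4, against 8.501, 8.77 and 8.81 across MCT4KO 1 to 3, without overlap, a change of 0.56 ± 0.144 (limma adjusted p = 0.15). Pmpcb, a subunit of the mitochondrial processing peptidase, had -0.39 and Tomm70a, an import receptor, 0.36 (limma adjusted p = 0.34 and 0.34).

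Nuclear-encoded subunits of the respiratory complexes, which join the products of the mitochondrial ribosome, and the proteins of the cytosolic ribosome were read beside the members. The 85 nuclear-encoded respiratory complex subunits had a median of -0.06, with 52 below 0. The 65 cytosolic ribosomal proteins had a median of 0.03, with 25 below 0. Limma called 0 of either. At unadjusted p below 0.05, 3 of the 85 subunits were lower and 1 higher. Of the 65 cytosolic proteins, 0 were lower and 1 higher. Among all genes, 6.9% were lower and 5.76% higher at that threshold. Differences between these groups and the mitochondrial ribosomal proteins were not tested.

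**Figure D4:**
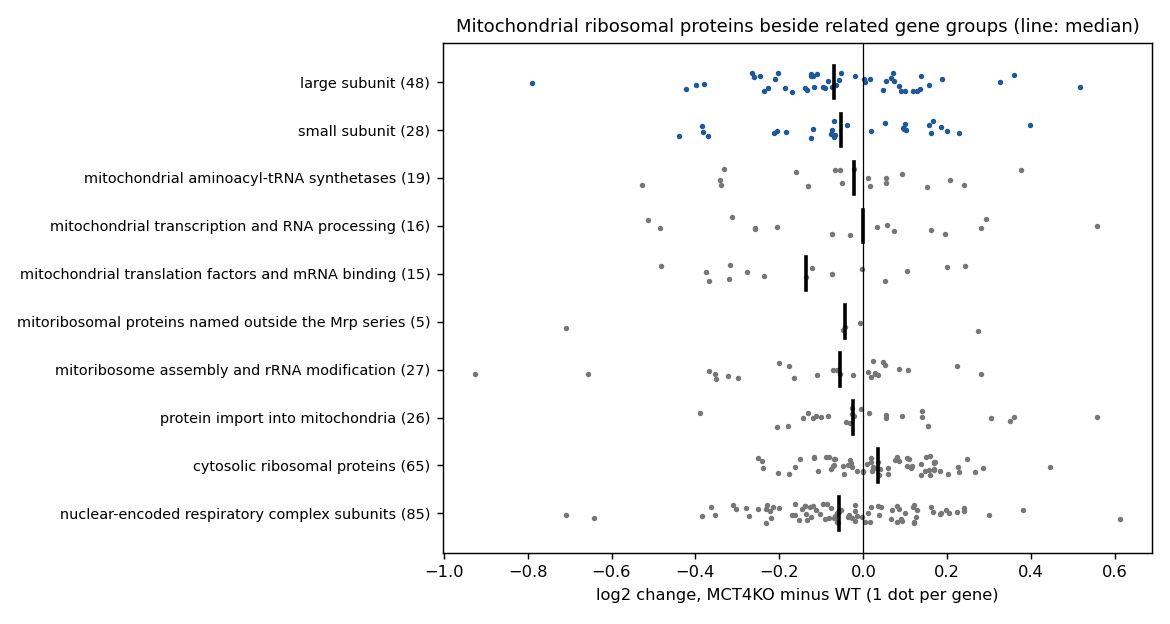
Log2 change (x axis, MCT4KO minus WT) of each gene (dots) in the 2 subunits and in 8 related groups, with the number of genes in brackets and the median as a line. The medians lie between -0.14 and 0.03 (large and small subunit 0.022 and 0.037 under quantile normalization), and the dots farthest from 0 on the left are Tfb1m at -0.92 and Mrpl41 at -0.79.

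Members are spread over 17 chromosomes, with 11 on chromosome 11, which also carries Slc16a3, and 8 on chromosome 17. The nearest to the deleted gene in the order of measured genes was Mrpl12, with 23 measured genes between them. It read 7.61, 7.78, 7.77 and 7.45 across WT 1 to 4, against 7.36, 7.80 and 7.996 across MCT4KO 1 to 3, so the groups overlapped fully. The next were Mrpl38 (change 0.16), Mrps7 (0.10) and Mrpl58 (-0.11), the last a peptidyl-tRNA hydrolase built into the large subunit. The 11 members on chromosome 11 had a median of -0.10, and the 65 elsewhere -0.06, with 0 called by limma in either. At unadjusted p below 0.05 there were 0 of the 11 and 9 of the 65 (12.7% of all genes); the difference was not tested.

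The promoters of the members, which the choice by symbol did not use, were also read. In RefSeq windows of build GRCm38.p6 that span 250 bases before to 50 after a gene's start, 67 members had 73 windows. Motifs of 3 factor families known from promoters of nuclear genes for mitochondrial proteins were counted on both strands: CCGGAAG for ETS factors such as GABP, CGCATGCG for NRF1, and AAGATGGC for YY1. The ETS motif stood in 34.2% of member windows against 8.86% of all 32851 windows, the NRF1 motif in 9.59% against 1.87%, and the YY1 motif in 16.4% against 2.75%. At least 1 of the 3 stood in 50.7% against 12.6%. The motif GGGCGG of SP factors stood in 52.1% against 35.7% and the TATA box TATAAA in 6.85% against 13.6%. Among windows of genes measured on the array, the ETS, NRF1 and YY1 shares were 11.8%, 2.59% and 3.1%, and the SP and TATA shares 47.9% and 12.3%, so the SP share of the members lies close to that of measured genes. A match is a description of the letters and does not show binding.

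Changes were set beside the motifs. The median change was -0.07 in the 25 genes with the ETS motif and -0.07 in the 42 without, and 0.10 in the 12 genes with the YY1 motif against -0.08 in the 55 without, differences that were not tested. The 250 bases before the start are shown for 8 of the 22 members that have 1 window and no annotated gene over those bases. Among these 22, the first 4 shown have the smallest p of their subunit and direction. Mrps2, with a smaller p than Mrps33, is not among the 22. The first 4 hold none of the 3 motifs in these bases. In Mrps33 an ETS match reaches past the start and is not marked. The other 4 have the most motif matches among the 22, in capitals. Mrpl17 has 2 matches and the others 1 each, with ties taken in alphabetical order.
Mrpl41, chr2:24975099-24975348, minus strand: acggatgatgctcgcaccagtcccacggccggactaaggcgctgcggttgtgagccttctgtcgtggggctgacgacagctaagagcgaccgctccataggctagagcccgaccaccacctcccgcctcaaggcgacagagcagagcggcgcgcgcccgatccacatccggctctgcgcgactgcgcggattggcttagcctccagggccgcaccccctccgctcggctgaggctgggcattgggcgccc
Mrpl20, chr4:155802628-155802877, plus strand: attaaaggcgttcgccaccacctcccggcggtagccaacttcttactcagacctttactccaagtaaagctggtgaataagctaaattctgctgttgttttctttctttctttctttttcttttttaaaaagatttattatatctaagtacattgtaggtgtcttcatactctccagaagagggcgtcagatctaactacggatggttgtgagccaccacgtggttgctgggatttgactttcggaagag
Mrps33, chr6:39810937-39811186, minus strand: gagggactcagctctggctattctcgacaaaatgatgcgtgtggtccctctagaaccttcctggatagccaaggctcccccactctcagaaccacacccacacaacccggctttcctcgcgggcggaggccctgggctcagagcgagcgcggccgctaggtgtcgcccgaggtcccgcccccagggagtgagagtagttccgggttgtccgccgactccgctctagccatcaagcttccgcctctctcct
Mrps9, chr1:42850983-42851232, plus strand: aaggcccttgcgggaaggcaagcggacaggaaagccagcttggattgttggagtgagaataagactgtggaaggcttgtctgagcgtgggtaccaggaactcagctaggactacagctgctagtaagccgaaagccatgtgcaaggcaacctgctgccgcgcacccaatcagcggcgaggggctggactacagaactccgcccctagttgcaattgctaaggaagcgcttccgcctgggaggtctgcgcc
Mrpl17, chr7:105811088-105811337, minus strand: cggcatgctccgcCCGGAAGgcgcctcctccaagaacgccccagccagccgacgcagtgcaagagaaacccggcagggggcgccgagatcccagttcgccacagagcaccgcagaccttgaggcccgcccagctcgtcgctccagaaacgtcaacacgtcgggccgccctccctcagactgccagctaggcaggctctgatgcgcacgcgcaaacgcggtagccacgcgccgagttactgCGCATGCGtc
Mrpl3, chr9:105053018-105053267, plus strand: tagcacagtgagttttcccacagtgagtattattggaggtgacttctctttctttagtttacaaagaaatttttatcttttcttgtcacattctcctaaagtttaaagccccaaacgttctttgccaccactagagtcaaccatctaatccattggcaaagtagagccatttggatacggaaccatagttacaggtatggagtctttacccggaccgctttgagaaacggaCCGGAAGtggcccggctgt
Mrpl39, chr16:84735245-84735494, minus strand: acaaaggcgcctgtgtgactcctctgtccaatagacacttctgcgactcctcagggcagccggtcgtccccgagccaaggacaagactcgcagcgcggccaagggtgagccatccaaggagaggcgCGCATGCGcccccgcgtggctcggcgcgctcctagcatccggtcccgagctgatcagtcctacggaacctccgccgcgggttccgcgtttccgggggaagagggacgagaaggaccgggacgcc
Mrpl52, chr14:54426659-54426908, plus strand: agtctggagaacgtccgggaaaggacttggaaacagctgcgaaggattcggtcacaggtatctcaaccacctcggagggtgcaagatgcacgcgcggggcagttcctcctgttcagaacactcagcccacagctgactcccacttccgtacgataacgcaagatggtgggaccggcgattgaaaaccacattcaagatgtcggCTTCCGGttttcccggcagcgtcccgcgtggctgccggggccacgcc

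In Mrpl17 the ETS match begins 237 bases and the NRF1 match 10 bases before the start. The ETS match of Mrpl3 begins 19 bases before the start, and that of Mrpl52, on the opposite strand, 47 bases before it. The NRF1 match of Mrpl39 begins 124 bases before the start. The changes of these 4 genes were -0.02, -0.06, -0.21 and 0.02 in the order Mrpl17, Mrpl3, Mrpl52 and Mrpl39, with adjusted p from 0.62 to 0.96.

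**Figure D5:**
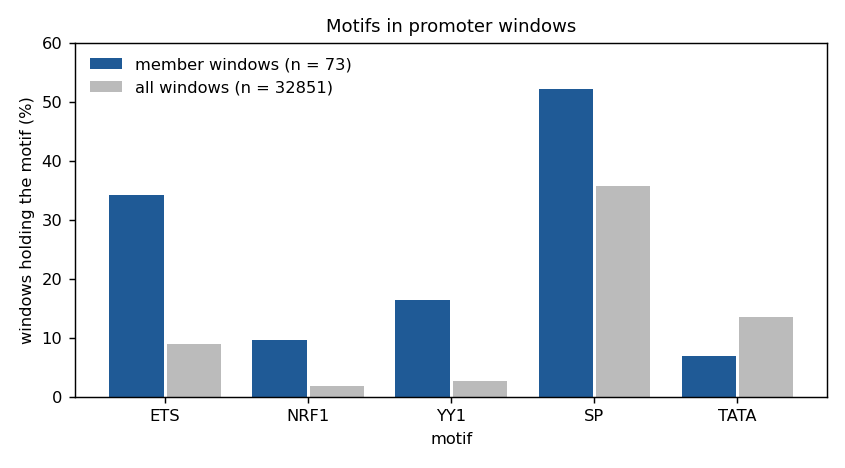
Share of promoter windows (y axis, %) that hold each motif (x axis) on either strand, for the 73 windows of members (blue) and all 32851 windows (grey). The ETS, NRF1 and YY1 motifs are more frequent in member windows, at 34.2%, 9.59% and 16.4%, than in all windows.

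Some members start close to a gene that runs the other way. By the RefSeq starts, 27 members had a head-to-head partner whose start lay within 1000 bases. How many of all genes have such a partner was not counted. Of 24 measured partners, the pair of members below counted from both sides, 14 were higher and 10 lower in MCT4KO. Limma called 0 of them (smallest adjusted p = 0.12). At unadjusted p below 0.05 there were 3, or 12.5% against 12.7% of all genes. Mrpl46 and Mrps11 form such a pair of members, with 42 bases between their starts and changes of 0.14 and 0.23. Mrpl43 is paired with Twnk, the helicase of mitochondrial DNA, with changes of -0.12 and -0.43. Mrps12 is paired with Sars2, the mitochondrial seryl-tRNA synthetase, with changes of -0.07 and 0.15. Mrpl41 is paired with Pnpla7, a lysophospholipase, 935 bases away, with changes of -0.79 and -0.71 (limma adjusted p = 0.18 and 0.12). The other partners at unadjusted p below 0.05 were Klc4 and Ighmbp2. Mrpl2 and Klc4, 141 bases apart, went opposite ways, with 0.32 and -0.35 (limma adjusted p = 0.35 and 0.37). Mrpl21 and Ighmbp2, 32 bases apart, had 0.0026 and 0.39 (limma adjusted p = 0.99 and 0.34). Whether paired genes changed together was not tested.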

How the data were processed

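Total RNA of nucleus pulposus from 7 mice was measured on Affymetrix whole-transcript arrays after GeneChip WT Plus labelling, per the labels' protocols. The authors deposited 1 log2 value per feature and array; the log scale is read from the values. Expression Console 1.4.1 is named in the submitters' processing notes, while the settings for background, normalization and summary are not stated there or in the labels. The values were used as deposited. Of 22206 transcript cluster features, 19572 had 1 symbol in GEO's annotation of the array, 0 had several and 2634 had none here. All 19572 matched the RefSeq table (GRCm38.p6) by gene identifier, which left 19505 genes, with the feature of highest mean for the 55 genes that had several. The 5222 negative controls had a median of 5.99.

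The model was fitted over all genes with limma 3.58.1 under R 4.3.3 (lmFit, eBayes; 5 residual and 4.66 prior degrees of freedom), two-sided, with Benjamini-Hochberg adjustment over 19505 genes and a threshold of 0.05, and was tested on simulated data. Intervals are 95% intervals of the same fit. With arrays, the number of animals is what limits the precision. Named members were any called, the 8 of smallest p in each subunit, 13 set members of known place, the 3 that follow their subunit most and least, and those below the control median; up to 3 genes per companion list were named. Members, lists and rules were chosen with earlier results of these data known. The alternatives tried were scaling arrays by quantiles or by their medians, dropping genes below the control median, averaging features, a trended prior, a replicate block and leaving out each animal; leaving out WT 1 and WT 2 together, and values by animal under quantile normalization, were added after seeing the data. For subunit medians, raising values to the control median, assigning by place in the ribosome and leaving out pseudogenes (none was among the members) were also tried. Erythroid, muscle and annulus markers were also read (median changes -0.65, 0.08 and 0.11; 0 called by limma, and 1 gene of each list at unadjusted p below 0.05).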

Additional observations from a re-analysis of the deposited data

Results flagged for a closer look

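The WT values of Mrps9 were marked because 1 animal stood apart from the other wild types. WT 1 read 8.90 and the others 9.32 to 9.36, a gap of 0.905 of the group's range, above Dixon's critical value for 4 samples. Without WT 1 the change of Mrps9 was 0.29. Among the 34 named members and both subunit means, no other group of wild types was so marked, and chance marks about 5% of groups.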

How the results depend on the processing

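None of the 76 members was called in any of the 14 refits (smallest adjusted p of a member from 0.12 to 0.44). Of the refitted changes of named members, 456 kept their sign and their side of the threshold and 16 changed sign. Quantile normalization moved the medians to 0.022 (large) and 0.037 (small) and turned Mrps12 to 0.023 and Mrps14 to 0.0095. The labels share replicate numbers, but the numbers do not pair the animals: deviations of same-numbered animals correlated at -0.13, 0.016 and 0.050, and 1 of 6 animals correlated best with its own number. The replicate block leaves WT 4 without a partner, so it gives the same changes as leaving out WT 4; 6 genes were called, the small-subunit median was -0.0035, Mrpl12 was -0.00082 and Mrps12 0.0051. Leaving out 1 animal gave 15 to 64 called genes (61, 40, 18 and 25 without WT 1 to 4; 35, 64 and 15 without MCT4KO 1 to 3), and 16 were called without WT 1 and WT 2. Over these fits the large-subunit median ran from -0.088 to -0.0052 and the small-subunit median from -0.073 to 0.067. Signs changed for Mrpl11 (-0.011 to 0.17), Mrpl12 (-0.074 to 0.24), Mrpl23 (-0.100 to 0.19; -0.051 without WT 1 and WT 2), Mrpl36 (-0.14 to 0.050), Mrps12 (-0.12 to 0.0051), Mrps14 (-0.21 to 0.12), Mrps16 (-0.11 to 0.031) and Mrps22 (-0.42 to 0.062). Fewer animals enter these fits; other causes were not tested. Features below the control median give no size of change.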
